A study of Rattus norvegicus with 2 samples.

Results

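The genes described here encode the enzymes and scaffold proteins that build the cornified envelope, the cross-linked protein shell laid down under the plasma membrane of keratinocytes as they end their differentiation. They are the transglutaminase genes Tgm1, Tgm2, Tgm3 and Tgm5 and the scaffold genes Ppl, Evpl and Scel. Members were found by gene symbol among the probe sets to which the platform annotation gives exactly 1 symbol. All 7 had 1 such probe set each, among 22093 genes named in this way. The cells were newborn rat epidermal keratinocytes (NRK cells), grown in DMEM with hydrocortisone and 10% fetal bovine serum and hybridized to whole-transcript GeneChip arrays. One array held RNA of cells given 5 µM all-trans retinoic acid (RA), a vitamin A metabolite that acts through nuclear receptors, dissolved in dimethyl sulfoxide. The other, titled with the day alone, was taken as the vehicle control that the design text names. Both were from day 5, with medium renewed every 24 h, and no label says whether an array held 1 culture or a pool. With 1 array per group no value below has an error and no difference could be tested against the spread between cultures.

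Transglutaminases join glutamine and lysine side chains of neighbouring proteins through calcium-dependent isopeptide bonds. In stratified epithelia periplakin and envoplakin are laid down early at the membrane, and transglutaminase 1, anchored there by fatty acyl groups, links them to involucrin and then to other precursors. Transglutaminases 3 and 5 act with it in the upper epidermis and the hair follicle, whereas transglutaminase 2 is the widely expressed tissue form and is known as an RA-inducible gene in several other cell types.

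Levels are given as the deposited log2 signals. A difference is the level with RA minus that without RA, and 1 log2 unit is called 2-fold on the deposited scale. Both arrays reach the same highest value of 19.93, above the log2 limit of 16 of a scanner image, so a fold here need not be a fold of RNA. The floor was set at 3.81, the median of all values, and 14274 genes reached it on at least 1 array. The 1153 negative control probe sets had medians of 4.47 with RA and 4.57 without RA and 95th percentiles of 8.06 with RA and 8.27 without RA, so the floor does not mark detection. A signal under the 95th percentile of its array is described below as in the range of the negative controls. Of the 399 positive control probe sets, 27.8% differed by 2-fold or more, and 27.6% of the negative controls did, larger shares than the 13.5% of genes that reached the floor. The central 95% of the positive control differences ran from -1.72 to 2.14. All 13 measured keratinocyte markers were above the floor, 8 of them at least 2-fold lower with RA and 1 higher. The largest differences were those of the suprabasal keratin genes Krt1 (-14.20) and Krt10 (-11.65), the basal keratin gene Krt14 (12.25 with RA and 19.93, the highest value, without RA) and the desmosomal cadherin gene Dsg3 (9.92 with RA and 16.11 without RA). Others, named after their values were seen, stayed bright on both arrays, such as Krt15, a basal keratin, at 19.65 with RA and 19.60 without RA, and Cdh1, encoding E-cadherin, at 15.91 with RA and 15.09 without RA.

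Of the 7 genes, 2 were at least 2-fold higher with RA (Tgm2 and Evpl), 2 were at least 2-fold lower (Tgm1 and Scel), and 3 differed by less than 2-fold (Tgm3, Tgm5 and Ppl). Over all genes that reached the floor, the share higher by 2-fold or more was 7.88%, the share lower by 2-fold or more was 5.63%, and both made up 13.5%. Higher genes made up 58.3% of those past 2-fold, and 69.3% after lowess scaling over all probe sets, which subtracts a smooth curve of the difference against the mean signal. The median difference of the 7 genes was -0.24, set beside -0.03 over all genes above the floor. The 7 are too few for their shares to be read as a property of the group, and their differences had both signs. All 7 passed the floor, but 5 of them (Tgm1, Tgm2, Ppl, Evpl and Scel) exceeded the 95th percentile of the negative controls on at least 1 array, and 4 did so on both, Tgm2 being the exception. Tgm3 and Tgm5 did so on neither. The differences of Evpl and Scel lie inside the central 95% of the positive controls, and those of Tgm1 and Tgm2 lie outside it. In the related lists below, some of which share genes, 60 genes counted once each passed 2-fold. Of these, 13 lay under the 95th percentile of the negative controls on both arrays and 24 on 1 of them. For the 13 a change cannot be read apart from background, and for the 24 the size of the difference is uncertain. Inside the central 95% of the positive controls were the higher genes Ctnnd1, Capn2, Ugcg, Cyp26b1, Itgb1 and Tgfb1. The lower genes Sprr1a, Cstb, Crct1, Cyp4f39, Elovl1, Abhd5, Rara, Crabp2, Grhl1 and Fosl2 lay there too. Each list count below is to be read beside the shares of 7.88% higher and 5.63% lower.

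**Figure D1:**
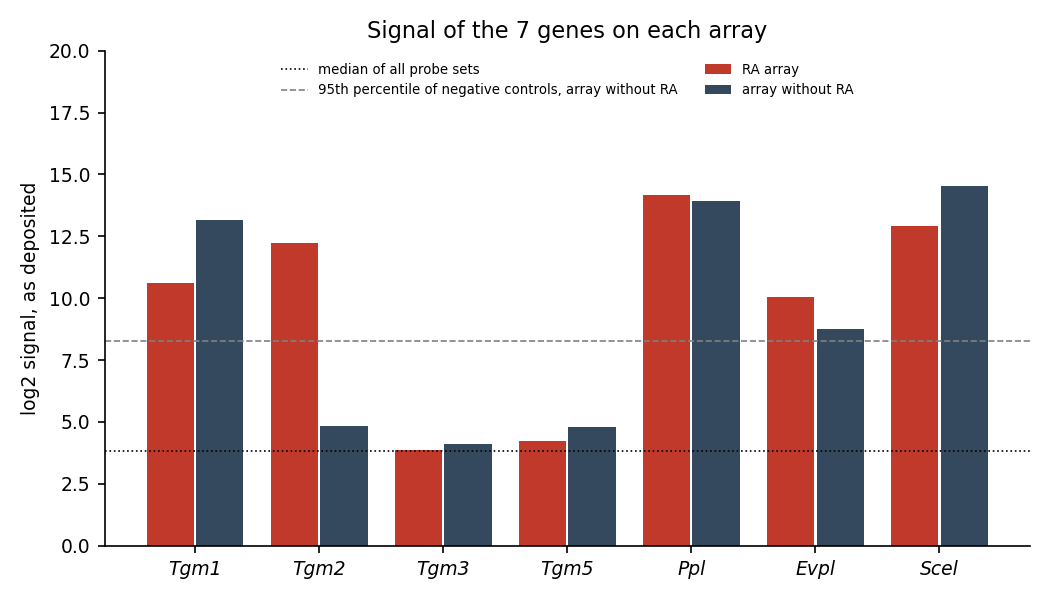
Log2 signal as deposited (vertical axis) of each gene on the RA array (left bar) and the array without RA (right bar), 1 array each and hence without error bars. The dashed line marks the 95th percentile of the negative controls on the array without RA (8.27), and that of the RA array (8.06) is not drawn. Tgm2 stands at 12.25 with RA and 4.84 without RA, while Tgm3 and Tgm5 stay under the dashed line on both arrays.

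Tgm1, the membrane-bound transglutaminase of keratinocytes, was lower with RA. Its signal was 10.63 on the RA array and 13.17 on the array without RA, a difference of -2.54 or 5.82-fold on the deposited scale. Of the genes above the floor, 1.37% had a difference as low or lower. The RA array thus had the lower Tgm1 level, and that level still lay above 98.2% of the negative controls, so the probe set gave signal under both conditions. In bulk RNA, fewer cells that make a transcript and less of it per cell cannot be told apart, here and for every gene below.

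Tgm2, the tissue transglutaminase, had the largest difference of the 7 genes and the opposite direction to Tgm1. Its signal was 12.25 on the RA array and 4.84 on the array without RA, a difference of 7.41. In all, 26 genes above the floor, Tgm2 included, had a difference at least as high. Without RA the probe set lay above 57.0% of the negative controls, which is within background, whereas with RA it lay above 99.0% of them. A difference that starts from background may be smaller than the true one, and its fold of 170.4 on the deposited scale is therefore not taken as a measure of RNA.

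Tgm3, known in mouse and human as the transglutaminase of hair follicles and upper epidermis, gave no signal beyond background on either array. It was at 3.87 with RA and 4.11 without RA, a difference of -0.24, and it lay above 34.2% of the negative controls with RA and 39.9% without RA. Tgm5, whose human counterpart is mutated in acral peeling skin syndrome, was at 4.22 with RA and 4.81 without RA, a difference of -0.59. Tgm5 lay above 44.8% of the negative controls with RA and 56.6% without RA, so neither a level nor a change of either gene could be read at these signals. The Entrez identifier that the platform annotation gives for Tgm5 is not in the RefSeq gene table used, and its name rests on the symbol.

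The rest of the transglutaminase family was near background. Its 6 measured genes ran from 3.29 to 3.80 with RA and from 3.29 to 3.93 without RA. Tgm6, at 3.75 with RA and 3.93 without RA, and Tgm7, at 3.80 with RA and 3.91 without RA, were the only ones to reach the floor. Tgm4, which encodes the prostate form, F13a1 and F13b, which encode the subunits of blood clotting factor XIII, and Epb42, an erythrocyte membrane protein without enzyme activity, stayed under the floor on both arrays. Of the 10 family genes counted with the 4 members, 1 was higher by 2-fold or more, 1 was lower and 8 stayed under 2-fold, and of these 10 Tgm1 and Tgm2 alone exceeded the 95th percentile of the negative controls.

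The differences of the 3 scaffold genes had both signs. Ppl encodes periplakin, a plakin that ties intermediate filaments to the membrane and the desmosome. It was at 14.16 with RA and 13.92 without RA, a difference of 0.24, and 55.0% of genes above the floor differed by as much or more in size. Its arrays were close on the deposited scale, but the difference was 0.88 after lowess scaling over all probe sets and 0.86 after a further quantile normalization.

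Evpl encodes envoplakin, the plakin that pairs with periplakin. Its signal was 10.04 with RA and 8.75 without RA, a difference of 1.29 or 2.44-fold. A difference as high or higher was seen in 5.82% of genes above the floor. The level without RA was above 96.1% of the negative controls, so both of its levels stood out from background. The products of Ppl and Evpl are known to form a heterodimer. The genes' differences, 0.24 and 1.29, had the same sign, and only that of Evpl passed 2-fold.

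Scel encodes sciellin, a cornified envelope precursor of stratified squamous epithelia that transglutaminases cross-link. It was at 12.92 with RA and 14.53 without RA, a difference of -1.61 or 3.06-fold. Of genes above the floor, 2.68% had a difference as low or lower. Scel was lower with RA but bright on both arrays, above 99.1% of the negative controls with RA and 99.3% without RA. After lowess scaling over all probe sets its difference was -0.995, which no longer passes 2-fold.

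**Figure D2:**
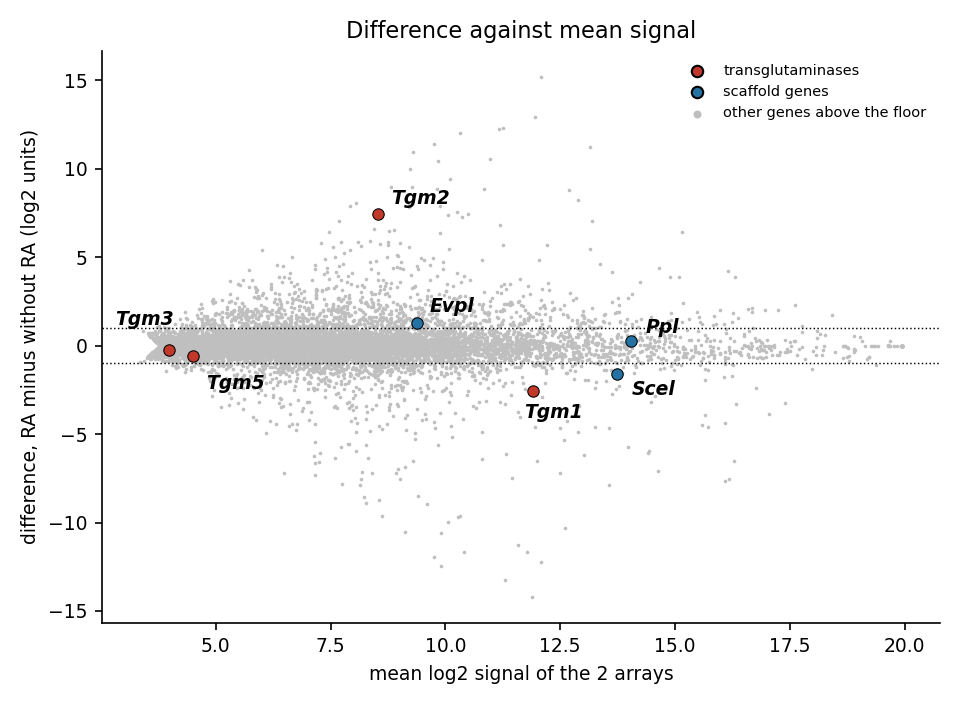
Difference, RA minus without RA in log2 units (vertical axis), against the mean log2 signal of both arrays (horizontal axis) for the 14274 genes above the floor in grey, with transglutaminases in red, scaffold genes in blue and dotted lines at 2-fold. Tgm2 (7.41) lies far above the dense band, Tgm1 (-2.54) and Scel (-1.61) lie below the lower dotted line, and Ppl (0.24) lies between the dotted lines.

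**Figure D3:**
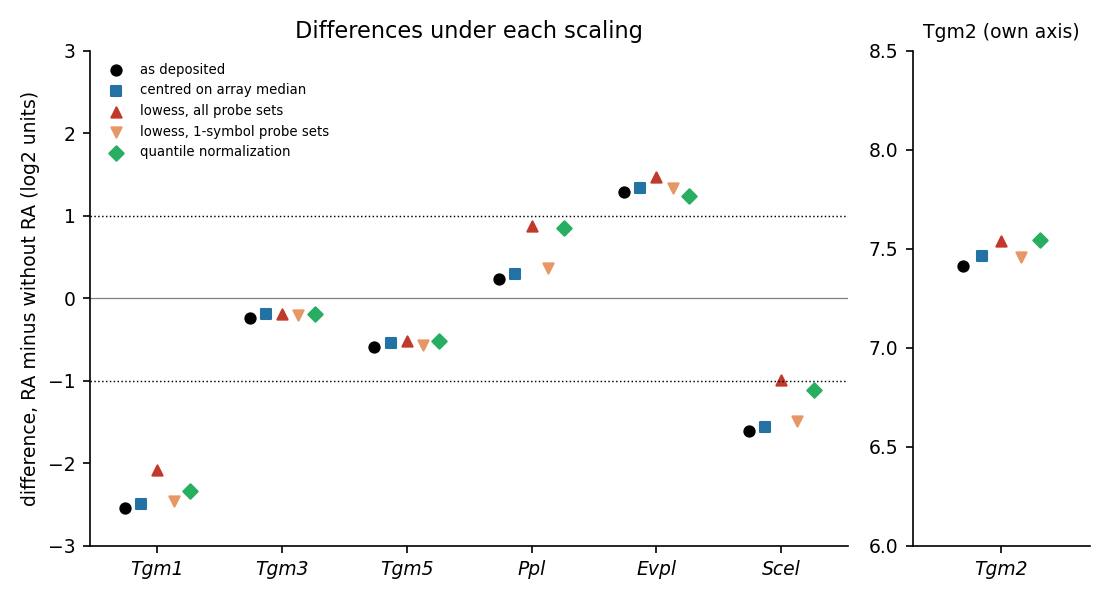
Difference of each gene in log2 units (vertical axis) as deposited and under 4 other scalings of the arrays, with dotted lines at 2-fold and Tgm2 on an axis of its own that does not start at 0. Every gene keeps its sign under these 4 scalings, Ppl moves to 0.88 with lowess over all probe sets, and Scel moves to -0.995 there.

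Promoter windows of 250 bases before and 50 after the annotated start were in the RefSeq table of build GRCr8 for 5 of the 7 genes, Tgm1, Tgm3, Tgm5, Ppl and Scel. The windows of Tgm1 and Scel are shown because these genes were lower with RA, and that of Ppl because it differed little on the deposited scale. Capitals mark matches on either strand, and no matches overlap in these windows. The motifs searched were TGANTCA for the AP-1 site, GGGCGG for the GC box, TATAAA for the TATA box, CCAAT as it stands, and AGGTCA for the half-site of nuclear receptors, the retinoic acid receptors among them.
Tgm1, chr15:33174218-33174517, minus strand: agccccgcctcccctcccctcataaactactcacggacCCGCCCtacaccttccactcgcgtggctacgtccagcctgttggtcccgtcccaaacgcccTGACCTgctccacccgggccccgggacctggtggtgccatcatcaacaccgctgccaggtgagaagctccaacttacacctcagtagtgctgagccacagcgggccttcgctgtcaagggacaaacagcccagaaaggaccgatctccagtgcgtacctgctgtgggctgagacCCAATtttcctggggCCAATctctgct
Scel, chr15:86754382-86754681, plus strand: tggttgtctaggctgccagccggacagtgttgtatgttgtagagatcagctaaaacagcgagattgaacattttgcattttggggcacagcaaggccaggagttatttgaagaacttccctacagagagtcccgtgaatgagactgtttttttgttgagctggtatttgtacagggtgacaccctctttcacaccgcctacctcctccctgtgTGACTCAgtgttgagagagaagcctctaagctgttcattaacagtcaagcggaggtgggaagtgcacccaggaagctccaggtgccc
Ppl, chr10:10957138-10957437, plus strand: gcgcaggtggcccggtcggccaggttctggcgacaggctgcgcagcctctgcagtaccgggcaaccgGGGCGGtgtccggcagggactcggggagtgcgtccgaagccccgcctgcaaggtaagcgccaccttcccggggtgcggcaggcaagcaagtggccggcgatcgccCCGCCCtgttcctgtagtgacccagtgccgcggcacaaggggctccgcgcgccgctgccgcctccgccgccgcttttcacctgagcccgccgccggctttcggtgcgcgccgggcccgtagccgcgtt
The start used for Tgm1 lies 1365 bases inside the gene's annotated span and that for Scel 37 bases inside it, so transcripts with an earlier start have another promoter. Scel held the only AP-1 match of the 5 windows, TGACTCA, which begins at position -37 counted from the start, and 7.33% of all 33469 promoter windows hold such a match. Tgm1 held the only half-site, TGACCT, at position -151, against 16.2% of all windows. A GC box stood in the windows of Tgm1 (position -212) and Ppl (positions -183 and -78), and 33.1% of all windows hold one. CCAAT stood in the windows of Tgm1, Tgm3 and Tgm5, against 37.5% of all windows, and TATAAA in that of Tgm3 alone, at position -37, against 14.2%. The Ppl window was 74.3% G or C, that of Tgm1 62.0%, that of Tgm5 53.7%, that of Scel 49.7% and that of Tgm3 48.3%, beside a median of 51.7% over all windows. These are matches of letters and show no binding.

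Most measured genes of proteins that transglutaminases cross-link into the envelope were lower with RA. Of 24 such precursor and substrate genes that reached the floor, 18 were lower by 2-fold or more, 1 was higher and 5 stayed under 2-fold, with a median difference of -4.16. Of these 19 genes past 2-fold, 4 (Sprr4, Rptn, Tchhl1 and Crct1) lay under the 95th percentile of the negative controls on both arrays and 11 on 1 array. The list was written with earlier results of these data known, so the count is a description. Its 4 largest differences were those of Krt1 (4.78 with RA and 18.98 without RA), Cnfn, encoding cornifelin (5.95 with RA and 18.20 without RA), Krt10 (5.94 with RA and 17.59 without RA) and Cdsn, encoding corneodesmosin (5.96 with RA and 17.21 without RA), each in the range of the negative controls with RA. Genes of the classical cross-linking order, named after their values were seen, were lower too. Ivl, encoding involucrin, was at 7.08 with RA and 11.18 without RA, Loricrin at 5.99 with RA and 10.06 without RA, and Sprr1b, encoding a small proline-rich cross-bridging protein, at 12.40 with RA and 19.92 without RA. Ivl and Loricrin were in the range of the negative controls with RA. Sprr1a was at 18.82 with RA and 19.93, the highest value, without RA, and its difference of -1.11 became -0.04 under lowess scaling over all probe sets. Among the genes under 2-fold, S100a10 (16.52 with RA and 16.48 without RA), S100a11 (17.52 on both arrays) and Anxa1 (18.47 with RA and 17.82 without RA) were bright on both arrays. The 1 higher gene, the trichohyalin-like Tchhl1, was at 6.81 with RA and 4.12 without RA, within that range on both arrays. Sprr and Lce genes have close relatives that may share signal.

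Of the other plakin genes, Dsp and Dst were lower with RA. Dsp, encoding desmoplakin, which anchors keratins to desmosomes, was at 13.41 with RA and 18.01 without RA, a difference of -4.60. Dst, encoding dystonin with its hemidesmosomal isoform, was at 6.50 with RA and 8.44 without RA. Plec (plectin), at 6.86 with RA and 7.25 without RA, and Eppk1 (epiplakin), at 4.60 with RA and 4.53 without RA, lay in the range of the negative controls, as did Dst with RA. Of these 4 plakins, 2 were lower by 2-fold or more and 0 were higher, while Ppl and Evpl had differences above 0.

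A list of partners of periplakin and envoplakin was written here. It takes in desmosomal, keratin and junction genes, and binding of each product to either protein was not checked. Of its 10 genes that reached the floor, 5 were lower by 2-fold or more, 1 was higher and 4 stayed under 2-fold, with a median of -1.71. Of the lower genes, Krt1 and Krt10 were already counted among the precursors and Dsp among the other plakins. Only Jup, at 14.69 with RA and 17.97 without RA, and Pkp1 were counted here for the first time. The 4 largest differences were those of Krt1, Krt10, Dsp and Pkp1, the last encoding plakophilin 1 of the desmosome, at 13.89 with RA and 18.30 without RA. The 1 higher gene was Ctnnd1, encoding p120 catenin, at 13.45 with RA and 12.35 without RA. The genes under 2-fold were Kazn, Vim, Krt8 and Cdh1. Kazn, encoding the periplakin-binding protein kazrin, was at 4.62 with RA and 4.75 without RA, close to the medians of the negative controls. Vim, at 5.94 with RA and 5.59 without RA, and Krt8, at 5.14 with RA and 5.00 without RA, lay in the range of the negative controls. Cdh1 differed by 0.81, and Krt18 was under the floor on both arrays.

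Proteases are known to process transglutaminases to their active forms. Of 7 genes of this list, 3 were higher by 2-fold or more, 0 were lower and 4 stayed under 2-fold, with a median of 0.77. Capns1, the regulatory subunit shared by the classical calpains, was at 15.69 with RA and 11.55 without RA. Ctsl, encoding cathepsin L, was at 14.19 with RA and 11.24 without RA, and Capn2, a calpain catalytic subunit, at 13.80 with RA and 12.24 without RA. Ctss was at 4.97 with RA and 4.21 without RA, near the medians of the negative controls. Ctsd, Ctsb and Capn1 differed by -0.71, -0.21 and -0.10, with signs that turned under lowess over all probe sets and, for each of them, under quantile normalization.

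The lipid envelope, whose ceramides are bound to proteins of the cornified envelope, is made by another set of enzymes. Of 12 measured genes, 10 were lower by 2-fold or more with RA and 1 was higher, with a median of -2.55. Asprv1, listed here although it encodes a skin aspartic protease and no lipid enzyme, was at 9.63 with RA and 17.50 without RA. The lipid transporter gene Abca12 was at 5.49 with RA and 12.46 without RA, the elongase gene Elovl4 at 6.03 with RA and 12.55 without RA, and the lipoxygenase gene Alox12b at 4.22 with RA and 10.32 without RA. With RA these 3 lay in the range of the negative controls, and 2 further lower genes, Sdr9c7 and Abhd5, did so on both arrays. The 1 higher gene was Ugcg, encoding glucosylceramide synthase, at 12.71 with RA and 11.09 without RA.

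Proteins that transglutaminase 2 meets outside the cell were examined beside Tgm2. Of their 9 genes, 4 were higher by 2-fold or more, 1 was lower and 4 stayed under 2-fold, with a median of 0.90. Ltbp1, encoding a latent TGF-beta binding protein that transglutaminase 2 fixes in the matrix, was at 9.70 with RA and 5.52 without RA. Mfge8, encoding a bridging protein of cell clearance, was at 10.99 with RA and 7.65 without RA. Itgb1, the integrin beta 1 gene, was at 17.96 with RA and 15.96 without RA, and Adgrg1, encoding an adhesion receptor that binds transglutaminase 2, at 6.55 with RA and 9.02 without RA. Ltbp1 and Mfge8 without RA and Adgrg1 with RA lay in the range of the negative controls.

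Retinoid genes and transcription factors of terminal differentiation completed the lists. Of 9 retinoid genes that reached the floor, 3 were higher by 2-fold or more and 3 were lower, with a median of 0.27. Of these 6, Cyp26b1, Rara and Crabp2 lay in the range of the negative controls on both arrays. Stra6, the retinol-binding protein receptor gene, was at 16.32 with RA and 4.30 without RA, and Dhrs3, a retinal reductase gene, at 13.09 with RA and 6.70 without RA, each within that range without RA. Rxra was at 8.16 with RA and 10.78 without RA, and Cyp26b1 at 5.96 with RA and 4.17 without RA. Cyp26a1, at 3.56 with RA and 3.60 without RA, was under the floor on both arrays. Rarb, at 3.85 with RA and 3.92 without RA, lay in the range of the negative controls on both. Of 21 transcription factors, 10 were lower by 2-fold or more and 1 was higher, with a median of -0.89, and 4 of these 11 (Ovol1, Fosl2, Jun and Maf) lay in the range of the negative controls on both arrays. Elf3, an ETS factor of epithelia, was at 14.22 with RA and, within that range, 6.77 without RA, while Znf750, Cebpa and Grhl3, each known as a factor of epidermal differentiation, differed by -4.87, -3.62 and -3.19, with Cebpa at 6.96 with RA, again within that range.

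**Figure D4:**
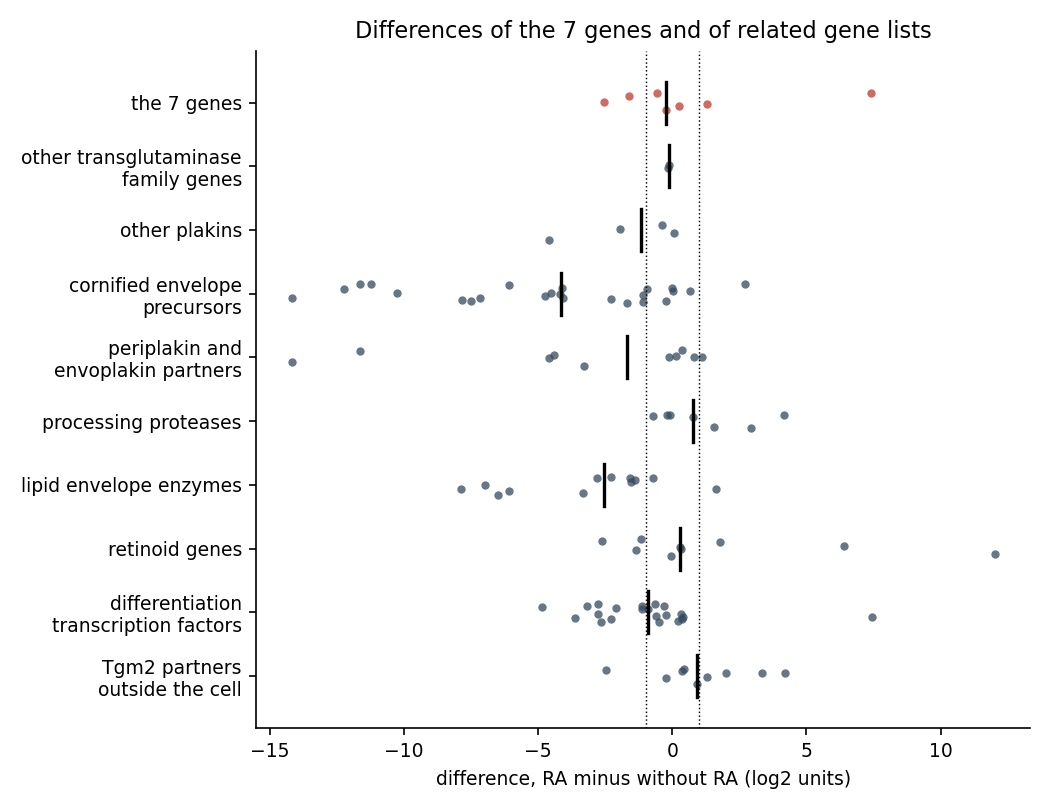
Difference, RA minus without RA in log2 units (horizontal axis), of the 7 genes in red and, in dark blue, of the genes above the floor in 9 related lists, with black bars at the medians and dotted lines at 2-fold. The cornified envelope precursors (median -4.16) and lipid envelope enzymes (-2.55) lie mostly to the left, whereas the 7 genes (median -0.24) spread to both sides.

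Markers of other cell types were examined because Tgm2 is also a gene of endothelium, fibroblasts and macrophages, and Tgm3 one of hair follicles. Of 51 measured markers in 6 lists, 26 were above the floor, of which 4 were higher with RA by 2-fold or more and 2 were lower. The summed signal of the 10 fibroblast markers was 9.14 with RA and 8.29 without RA on the log2 scale, and the markers Pdgfra, Pdgfrb, Dcn, Lum and Thy1 were under the floor on both arrays. Fbln1, at 8.63 with RA and 5.73 without RA, and Col3a1, at 4.90 with RA and 7.03 without RA, were the fibroblast markers past 2-fold. The sum of the 7 endothelial markers was 7.25 with RA and 8.13 without RA, with Pecam1, Cdh5 and Kdr under the floor on both arrays. Tek, an endothelial receptor gene, was at 6.38 with RA and 7.72 without RA, and like Col3a1 it lay in the range of the negative controls on both arrays. The sum of the 8 immune markers was 11.36 with RA and 7.01 without RA, and Cd68, a lysosomal gene of macrophages, was at 11.31 with RA and 5.41 without RA. The immune markers Ptprc, Csf1r and Itgam were under the floor on both arrays. The 11 hair follicle markers summed to 13.66 with RA and 8.40 without RA, with Krt79 at 13.20 with RA and 5.23 without RA and Krt75 at 11.69 with RA and 5.81 without RA, whereas Krt35 and Tchh were under the floor on both. The 8 melanocyte markers summed to 6.97 with RA and 7.30 without RA and the 7 Merkel cell markers to 7.31 with RA and 7.51 without RA. Tyr, Dct, Sox10, Atoh1 and Chga were under the floor on both arrays, whereas Mitf, Pmel, Kit, Krt20, Krt8, Isl1 and Sox2 reached it. Further markers of the fibroblast, endothelial, immune and hair follicle lists reached it too. Without RA, Fbln1, Cd68, Krt79 and Krt75 were in the range of the negative controls, and every other marker of these lists was so on both arrays. Neither presence nor absence of a cell type can be read from markers in that range. The sums took in all measured markers and are not levels of a cell type. With RA, Cd68 made up most of the immune sum, Fbln1 most of the fibroblast sum, and Krt79 with Krt75 most of the hair follicle sum. The part of any of these cells in the Tgm2 level was not tested.

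The 2 genes with the closest difference over both arrays were listed for each member, which says nothing of shared function. Nearest to Tgm2 (7.41) were Fam20c, at 13.77 with RA and 6.36 without RA (7.41), and Elf3 (7.45). Nearest to Tgm1 (-2.54) were Tmem154 (-2.54) and the kallikrein gene Klk13 (-2.53). Nearest to Evpl (1.29) were Mgst3 and Atp2c2 (1.29 each), and nearest to Scel (-1.61) were Slc22a4 and Trex1 (-1.61 each). For the members under 2-fold they were Pate14l1 and Cenatac (-0.24 each) for Tgm3, Clec2g and Srsf1 (-0.59 each) for Tgm5, and Hspd1-ps4 and Nlgn2 (0.24 each) for Ppl.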

How the data were processed

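The deposited table of log2 signals has 70580 probe sets and 1 column for each array. Per the submitters' processing notes the authors used RMA and the Transcriptome Analysis Console, and versions, settings and genome build are not given in the sources used here. That the scale is log2 was judged from the range of the values. RMA corrects background, normalizes between arrays and summarises probes, and the values above 16 (670 on the RA array and 963 on the array without RA) come from a step not given in those sources. Such stretching can widen differences of bright genes.

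From these values the difference, RA array minus array without RA, was computed per gene with Python 3.11.15, numpy 2.4.6, pandas 2.3.3 and statsmodels 0.14.6. Of the probe sets, 23446 had 1 gene symbol, 505 several and 46629 none, and 22077 of the first matched the RefSeq gene table (assembly GRCr8) by Entrez identifier. A gene with several probe sets kept the one with the highest mean. Groups came from the sample titles. Depth does not apply to arrays, and their number, 1 per group, limits the precision. No test was run. Calls are by size, 2-fold on the deposited scale. The counting was run on simulated data with known shifts and little noise, which checks the code and not whether a call here is right. The members, lists and named genes were chosen with earlier results of these data known. Named genes are the members, the other family and plakin genes, the 4 largest differences of each pathway list above the floor and the 2 closest genes per member, and any further list or marker gene was named after its value was seen. Alternatives were median centring, lowess (span 0.2), quantile normalization, the mean of probe sets, other floors and other thresholds.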

Additional observations from a re-analysis of the deposited data

How the results depend on the processing

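No paired analysis was possible because the series has only 1 array of either kind, and leaving out a replicate was impossible for the same reason. The sign of each of the 7 differences held under 4 scalings. The mean of probe sets and raising values to the floor could not alter them, since each member has 1 probe set and no value under the floor. Tgm1 ran from -2.54 to -2.08, Tgm2 from 7.41 to 7.54, Evpl from 1.24 to 1.47 and Scel from -1.61 to -0.995, and Ppl reached 0.88 under lowess over all probe sets and 0.86 under quantile normalization. With that lowess curve 1 of the 7 genes was at least 2-fold lower. At 4-fold 1 was higher and 1 lower, and 8 list genes were higher in place of 14 at 2-fold. The median of the members was 0.24 with the floor at the 75th percentile (5.45), which leaves out Tgm3 and Tgm5. At the main floor the mean of all 7 members was 0.57, beside their median of -0.24. The share of all genes higher and lower was 5.09% and 3.64% with no floor, 13.9% and 12.3% at 1.5-fold, and 3.05% and 1.997% at 4-fold. Of 72 list and marker genes past 2-fold, 0 changed sign under the 4 scalings, one of which (lowess over probe sets with 1 symbol) was added after the data were seen. List genes at least 2-fold lower were 46 as deposited, 42 with lowess over all probe sets and 43 with quantile normalization. Those at least 2-fold higher were 14, 17 and 15 in the same order. With that lowess curve the lower genes Sprr1a (-0.04), Cstb (-0.62), Elovl1 (-0.90) and Grhl1 (-0.96) no longer passed 2-fold. The lower precursor genes then numbered 16 in place of 18. The cause of these shifts was not tested. Signals in the range of the negative controls limit Tgm3, Tgm5 and the level of Tgm2 without RA, and 37 of the 60 list genes past 2-fold on at least 1 array.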

Other observations

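The nearest protein-coding genes on each side of the 7 members, taken from the RefSeq table of GRCr8 and chosen after the data were seen, were also measured. Of these 14 neighbours, 0 differed by 2-fold or more, beside 13.5% of all genes above the floor. Their differences ran from -0.46 to 0.97. Only Rabggta, Ubn1, Srp68 and Mycbp2 exceeded the 95th percentile of the negative controls on at least 1 array. For the other neighbours a change cannot be read apart from background, so the count is a description only. Beside Tgm2 stood Rprd1b, at 6.25 with RA and 6.44 without RA, and Kiaa1755, under the floor on both arrays. Beside Tgm1 stood Tinf2, a telomere protein gene, at 6.44 with RA and 6.33 without RA, and Rabggta, encoding a subunit of a Rab prenyl transferase, at 8.83 with RA and 8.11 without RA. Beside Scel stood Mycbp2 (7.92 with RA and 8.38 without RA) and Slain1 (3.94 with RA and 3.72 without RA). The largest difference was that of Srp68, a signal recognition particle gene beside Evpl, at 15.50 with RA and 14.53 without RA, and Ten1 on the other side differed by -0.11. Epb42, Tgm5 and Tgm7 lie next to each other, as do Tgm3 and Tgm6, and of these 5 transglutaminase family genes none exceeded the 95th percentile of the negative controls on either array.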
